A study of Mus musculus with 10 samples.

Results

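The regions described here are places of open chromatin in neonatal mouse retina that carried neither of 2 histone marks at lysine 27 of histone H3. They were chosen by peak calls: the 4 lists of ATAC-seq peaks were merged wherever peaks shared at least 1 bp on chromosomes 1 to 19, and a merged region was kept when all 4 lists called it and no peak of the 2 H3K27ac and 2 H3K27me3 lists touched it. Of 116384 merged regions, 32852 were called in all 4 lists, and 7325 of these were unmarked. Because the rule selected on openness and on the absence of both marks, these properties are not results. What follows describes the regions' width, position, neighbourhood, sequence and width by genotype.

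All libraries came from mice of strain C57BL/6. ATAC-seq, which finds accessible DNA by the cuts of the transposase Tn5, was done on explants of postnatal day 2 retina transfected with a plasmid for GFP (control, labelled wild type, 2 libraries) or for GFP with Cre (Casz1 conditional knockout, cKO, 2 libraries). After 2 days ex vivo, 50000 live GFP-positive cells were sorted per library, in experiments run on separate days. ChIP-seq of each histone mark was done on dissected retina at P0, with 1 control and 1 cKO library per mark, and the cKO tissue was peripheral retina picked by fluorescence. Age, culture, sorting and part of the retina therefore differed between the assay that showed a region as open and the assay in which its mark was looked for, and these cannot be told apart from a true lack of the mark. The promoter that drives Cre and the deleted part of Casz1, which encodes a zinc finger transcription factor, are not stated in these sources.

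Acetylation of lysine 27 marks active promoters and enhancers, and its trimethylation is laid down by Polycomb repressive complex over silenced genes. Open chromatin with neither mark is known to include insulators, where the zinc finger protein CTCF binds a long, fixed DNA sequence and halts the ring-shaped cohesin complex, so that loops and domain borders form. It can also include primed or inactive enhancers, and repeated DNA to which reads of other places align. In bulk cells, a site open in few cells and a site weakly open in many cannot be told apart.

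Bases were given in the sources only for promoter windows of the RefSeq promoter table (build GRCm38.p6, the assembly called mm10), which run from 250 bases before to 50 after an annotated start. Of the 7325 unmarked regions, 126 met such a window, all at annotated starts, and the bases of the others were not searched. In 14 of the 126 a window held a match to the 12-letter CTCF consensus, searched on both strands. By window, 11.5% of those at unmarked regions held a match. The share was 4.89% at regions with H3K27me3 alone, 0.931% at regions with H3K27ac alone and 0.574% over all windows. In all 14 unmarked regions the match lay inside the stretch that all 4 ATAC lists called. The 10 sequences below come from 10 of these 14 regions, chosen after the data were seen. Each is the part of the promoter window inside the peak of control replicate 1, the library with the narrowest peaks. It is written 5′ to 3′ on the strand of the gene, with the consensus match in capitals. By themselves the sequences show the match inside the peak of that library only. The first 5 belong to protein-coding genes and the other 5 to genes of long noncoding RNAs.
Myo1h (chr5:114356645-114356864, plus strand): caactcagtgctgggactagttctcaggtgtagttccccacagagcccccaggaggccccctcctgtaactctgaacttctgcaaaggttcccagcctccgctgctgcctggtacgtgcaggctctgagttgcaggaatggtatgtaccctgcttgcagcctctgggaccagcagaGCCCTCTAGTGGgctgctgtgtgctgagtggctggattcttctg
Pdzd9 (chr7:120670305-120670422, minus strand): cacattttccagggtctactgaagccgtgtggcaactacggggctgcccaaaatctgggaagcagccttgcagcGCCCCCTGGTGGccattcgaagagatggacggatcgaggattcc
Adprhl1 (chr8:13254282-13254392, minus strand): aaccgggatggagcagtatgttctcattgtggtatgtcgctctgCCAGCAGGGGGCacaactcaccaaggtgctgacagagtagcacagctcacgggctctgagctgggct
Aox3 (chr1:58112898-58113056, plus strand): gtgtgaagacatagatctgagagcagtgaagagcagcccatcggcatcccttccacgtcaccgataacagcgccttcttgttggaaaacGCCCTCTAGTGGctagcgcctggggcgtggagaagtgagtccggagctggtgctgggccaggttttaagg
Nmur1 (chr1:86389415-86389533, minus strand): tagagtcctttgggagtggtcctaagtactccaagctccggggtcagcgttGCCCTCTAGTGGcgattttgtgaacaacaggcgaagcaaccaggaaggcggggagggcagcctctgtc
C330018A13Rik (chr5:116123468-116123648, plus strand): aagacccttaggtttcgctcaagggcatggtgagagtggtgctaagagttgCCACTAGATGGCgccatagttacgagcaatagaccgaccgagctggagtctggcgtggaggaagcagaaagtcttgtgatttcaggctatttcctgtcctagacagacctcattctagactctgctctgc
Gm41504 (chr16:94713858-94714002, minus strand): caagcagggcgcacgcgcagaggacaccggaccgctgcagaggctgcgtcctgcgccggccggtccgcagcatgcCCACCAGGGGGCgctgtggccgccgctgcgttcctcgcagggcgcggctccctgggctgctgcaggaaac
Gm33756 (chr19:59389378-59389510, plus strand): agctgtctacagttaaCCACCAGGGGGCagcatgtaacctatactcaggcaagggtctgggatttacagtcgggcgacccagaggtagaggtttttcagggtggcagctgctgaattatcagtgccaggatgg
Gm38588 (chr7:98481129-98481314, plus strand): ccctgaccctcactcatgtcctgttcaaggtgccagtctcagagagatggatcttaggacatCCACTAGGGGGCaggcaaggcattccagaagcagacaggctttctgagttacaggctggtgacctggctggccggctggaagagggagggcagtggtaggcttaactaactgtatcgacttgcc
Gm30107 (chr8:114081176-114081316, minus strand): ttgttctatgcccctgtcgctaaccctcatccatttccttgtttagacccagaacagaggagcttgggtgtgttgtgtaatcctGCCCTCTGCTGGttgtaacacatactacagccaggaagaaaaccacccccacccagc

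The matched letters stood at various places along these narrow peaks, and in both orientations relative to the gene. Myo1h encodes an unconventional myosin, Aox3 an aldehyde oxidase and Nmur1 a receptor for the neuropeptide neuromedin U. The Myo1h region (chr5:114356520-114357513) was covered by peaks over 241 and 963 bp in control replicates 1 and 2, and over 984 and 339 bp in cKO replicates 1 and 2. The Nmur1 region (chr1:86389227-86389878) was covered over 119, 624, 632 and 138 bp in the same order. Across the 14 regions the median cover was 166 bp in control replicate 1 (111 to 262), 603 bp in control replicate 2 (286 to 963), 595 bp in cKO replicate 1 (449 to 984) and 288 bp in cKO replicate 2 (138 to 360). The nearest histone peak was from 0.113 to 58.5 kb away (median 2.77 kb). The matched letters were thus shared by the peaks of all 4 libraries, whose width otherwise differed several fold.

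The ATAC libraries stood apart by list length rather than by genotype. Control replicate 1 held 39636 peaks over 11.6 Mb and cKO replicate 2 held 59574 over 19.6 Mb, while control replicate 2 held 108569 over 59.8 Mb and cKO replicate 1 held 91931 over 51.6 Mb. Depth is unknown, because the lists hold only positions. Regions called in all 4 lists lay within 1 kb of an end of 23 of 23 retinal progenitor genes and 16 of 16 neurogenic genes. This compares with 4 of 15 microglia, 5 of 18 vessel, 4 of 19 liver, muscle and blood and 7 of 13 pigment epithelium genes. Lists not particular to retina could stand as high, with 17 of 18 housekeeping and 19 of 20 cell cycle genes. The Polycomb and NuRD list had 26 of 30, CTCF and cohesin 13 of 17, imprinted 28 of 45 and Hox 7 of 39. The share over all protein-coding genes was not computed, so these counts do not identify the cells. Other retinal lists varied. They had 11 of 12 photoreceptor regulator, 20 of 25 Müller glia, 14 of 20 amacrine and horizontal cell and 8 of 14 cone genes. Ganglion cell (8 of 18), bipolar (7 of 18) and rod genes (6 of 20) stood below the pigment epithelium share. The Casz1 gene (chr4:148804366-148954893) held 18 regions called in all 4 lists, all acetylated and none unmarked, and this does not check the genotype labels.

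Unmarked regions were a minority of the places that every library called and the larger share of places that few libraries called. Among regions called in all 4 lists, 22.3% were unmarked, 61.2% carried H3K27ac alone, 5.33% H3K27me3 alone and 11.2% both. Of regions called in 1 list, 74.2% were unmarked (22492 of 30302), of those called in 2 lists 60.5% (20864 of 34481) and of those called in 3 lists 46.7% (8762 of 18749). Just outside the rule by calls stood these 8762 unmarked regions of 3 lists, with a median width of 517 bp. Of them 7968 lacked a call only in control replicate 1, the shortest list, so that this library set most of the border: without it the rule gave 15293 regions, of which 4.79% were within 1 kb of an end of a protein-coding gene. Just outside by marks stood 245 regions with at most 50 marked bases (median width 560 bp), and just inside stood 172 unmarked regions with a histone peak within 50 bp (570 bp). A further 961 regions were marked in the control lists alone, 786 of them by H3K27ac, and 861 in the cKO lists alone, 713 of them by H3K27ac.

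**Figure D1:**
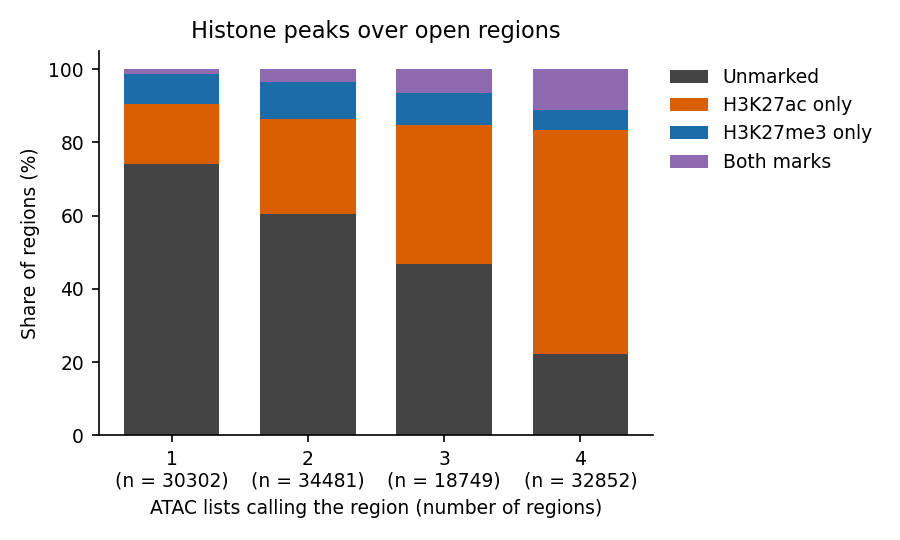
Share of merged ATAC regions (percent) with no histone peak, H3K27ac alone, H3K27me3 alone or both marks, by the number of ATAC lists that called the region, with the number of regions under each bar. The unmarked share falls from 74.2% with 1 list to 22.3% with all 4.

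Unmarked regions were narrow. Their merged width had a median of 584 bp (quartiles 504 and 695 bp), beside 923 bp for regions with H3K27ac alone, 673 bp with H3K27me3 alone and 1101 bp with both. Peaks of control replicate 1 covered a median of 146 bp of an unmarked region and 355 bp of an H3K27ac-only region. The same medians were 553 and 886 bp in control replicate 2, 528 and 848 bp in cKO replicate 1, and 204 and 520 bp in cKO replicate 2. Unmarked regions were the narrower class in all 4 libraries, by 294 bp on average (SD 57.5, n = 4 libraries). A two-sided exact sign-flip permutation test gave the smallest p that 4 libraries allow, which is above 0.05. The difference from H3K27me3-only regions was 54.9 bp (SD 26.2, n = 4), again in all 4 libraries. A wide region has more bases that a histone peak can touch, so width and the rule are not independent, and their part in this difference was not tested.

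**Figure D2:**
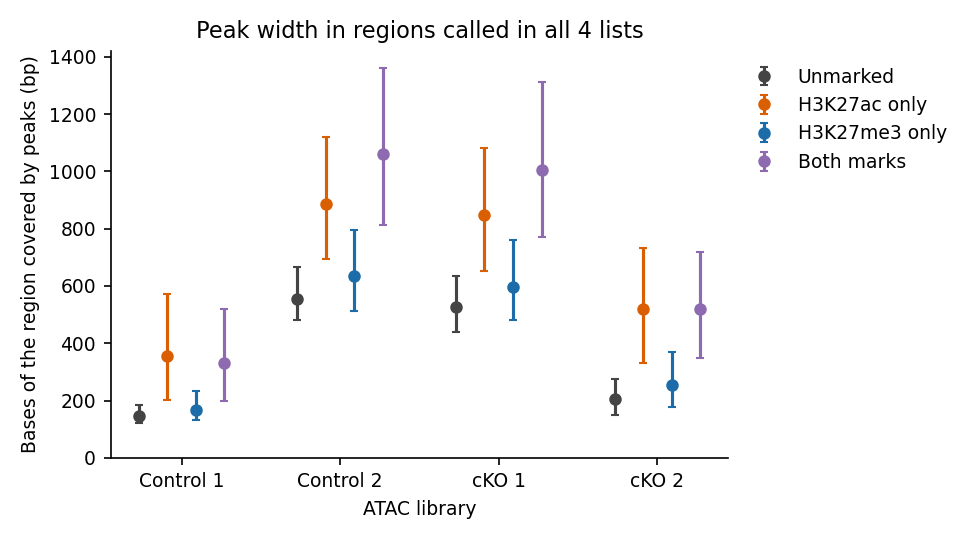
Bases of each region covered by ATAC peaks (bp), per library, for regions called in all 4 lists, by histone class; points are medians over regions and bars run from the lower to the upper quartile. Unmarked regions have the lowest median in each library, from 146 bp in control 1 to 553 bp in control 2.

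An unmarked region was nearly always a single peak: from 97.1% (cKO replicate 2) to 99.9% (control replicate 2) of them held 1 peak per list, beside 84.2% to 99% of H3K27ac-only regions. The narrowest of the 4 covers was a median of 0.257 of the widest in unmarked regions, much as in H3K27me3-only regions (0.267), and 0.406 in H3K27ac-only regions.

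A few unmarked regions were wide in every list. They were ranked by the lowest of their 4 within-list width percentiles, and the first stood far from the rest. This region (chr1:24611568-24616154) was covered over 4574 and 4458 bp in control replicates 1 and 2 and over 4462 and 4587 bp in cKO replicates 1 and 2, with nearly the same width in all 4. It overlaps the annotated pseudogenes Gm10222 and Gm10925, and the nearest end of a protein-coding gene, Col19a1, a collagen gene, is 23.6 kb away. The place is known as a nuclear copy of mitochondrial DNA. Whether its peaks came from mitochondrial reads was not tested.

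The second (chr2:22588484-22590239), inside Myo3a, the gene of a class III myosin of photoreceptors and hair cells, was covered over 1584 and 1372 bp in control and 1511 and 1756 bp in cKO. Its widths again overlapped between genotypes, and its nearest histone peak was 25.2 kb away. The third (chr11:3184409-3186084) lies inside Sfi1, a centrosome gene, and had 890 and 1631 bp in control against 1129 and 902 bp in cKO. Next came a region 8144 bp from Malat1, the gene of an abundant nuclear long noncoding RNA (chr19:5786356-5787546; 484 and 1173 bp in control, 1191 and 664 bp in cKO). A region 61.9 kb from Ccnh, which encodes cyclin H (chr13:85126481-85127497), held nearly the same width in all lists, with 878 and 1004 bp in control and 936 and 924 bp in cKO. The other 5 of the first 10 lay inside Iqcg, inside Ptprm, a receptor phosphatase gene, and in intergenic stretches nearest to Gm11232, Rpia and Spry2.

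**Figure D3:**
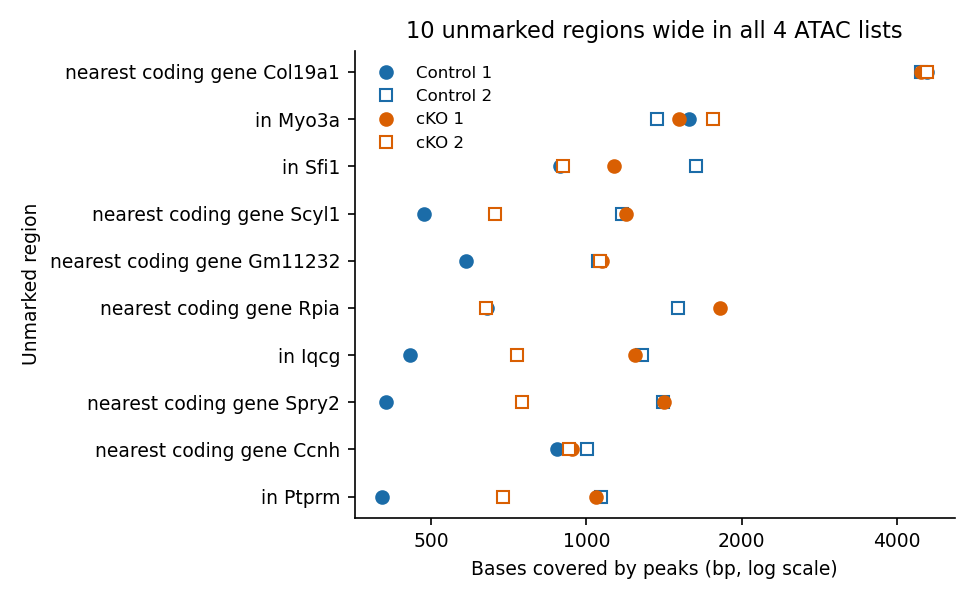
Bases covered by ATAC peaks (bp, log scale) in each library for the 10 unmarked regions with the highest lowest width percentile over the 4 lists; blue is control, orange is cKO, filled circles are replicate 1 and open squares replicate 2. The top region is at 4458 bp or more in every library, and control 1 and cKO 2 lie to the left of the other pair in most rows.

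Unmarked regions lay away from gene ends. Of 7325, 464 (6.33%, exact 95% interval 5.79 to 6.92) were within 1 kb of an end of a protein-coding gene, beside 41.7% of H3K27ac-only regions, 17% of H3K27me3-only regions and 59.2% of regions with both. The median distance was 17.9 kb, against 4.23 kb with H3K27ac alone, and 2030 unmarked regions (27.7%) lay more than 50 kb away. Unmarked regions called in fewer lists lay farther off still, with 3.44%, 3.13% and 3.27% within 1 kb and medians of 31.1, 34.3 and 35.2 kb for 3, 2 and 1 lists. Both acetylation and Polycomb marks are known to sit at promoters, so a rule that leaves marked regions out takes promoters with them, and no test was made of these shares. Inside a protein-coding gene lay 3489 (47.6%), against 73.9% with H3K27ac alone and 43.9% with H3K27me3 alone.

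**Figure D4:**
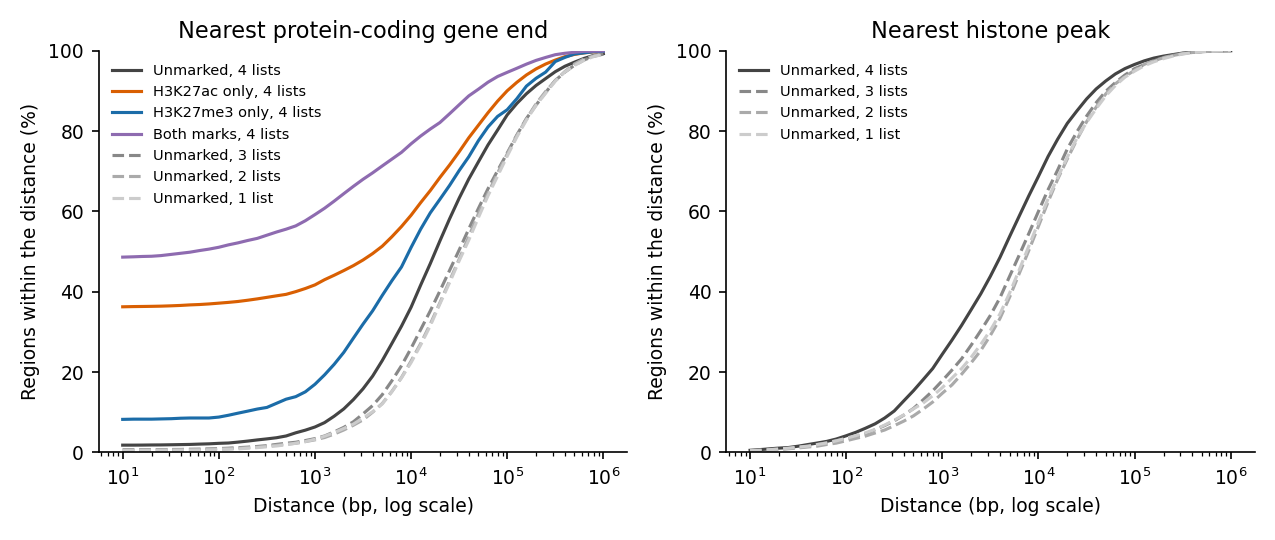
Cumulative share of regions (percent) by distance (bp, log scale) to the nearest protein-coding gene end, left, and to the nearest histone peak of any of the 4 lists, right, with solid lines for regions called in all 4 ATAC lists and dashed lines for unmarked regions called in fewer. At 1 kb on the left the solid line of unmarked regions stands at 6.33% and that of H3K27ac-only regions at 41.7%, and on the right unmarked regions called in all 4 lists lie above those of fewer lists (24.5% within 1 kb).

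The regions were spread over all chromosomes used. Their share among regions called in all 4 lists ran from 19% on chromosome 11 to 26.6% on chromosome 16. Across the 19 chromosomes this share fell with the density of protein-coding genes (Pearson r = -0.714, Spearman correlation -0.652), while unmarked regions per Mb rose with it (Pearson r = 0.735), as a description of chromosomes that share the same 8 libraries. Neighbouring unmarked regions were a median of 158 kb apart, and 296 of 7306 gaps (4.05%) were at most 5 kb. The genes with the most unmarked regions inside held 6 each: Cntnap2, a neurexin family gene, Pde4d, a phosphodiesterase gene, Robo1, a guidance receptor gene, Arhgap26 and Ldlrad3. They are long, up to 2241 kb for Cntnap2, and Ldlrad3 reached 6 within 236 kb.

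The nearest histone peak was a median of 4.24 kb away (quartiles 1.04 and 13.5 kb). For unmarked regions called in 3, 2 and 1 lists the medians were 6.56, 7.84 and 7.5 kb. By mark, H3K27ac was 11.7 kb away in control and 11.3 kb in cKO, and H3K27me3 23.1 and 23.6 kb, so that the distances hardly differed between the genotypes' libraries, each of which has no replicate. Unmarked regions called in 3 lists stood 35.2 kb from control H3K27me3, and those of 1 list 42.9 kb. A histone peak stood within 1 kb of 1792 regions (24.5%), and 250 (3.41%) had none within 100 kb. A peak of H3K27ac was the nearest on both sides for 3242 regions (44.3%), H3K27me3 on both sides for 1474 (20.1%), and 2609 (35.6%) had a different mark on either side. The last share was 31.6% to 33.7% in unmarked regions of fewer lists. H3K27me3 peaks stood within 1 kb on both sides of 246 regions (3.36%), like a gap in the mark, against 2.15% of unmarked regions called in 3 lists and 0.76% of those called in 1. H3K27ac stood so around 60 regions (0.819%), against 1% and 1.33%.

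Among unmarked regions with a high lowest width percentile, the 5 farthest from any histone peak also lay far from protein-coding genes. Their lowest percentiles ran from 24.5 to 67.7, so not all were wide in every list. The nearest coding gene of the first was 1700009N14Rik, 523 kb away, and its nearest mark was 699 kb away. For Nxph1, a neurexin ligand gene, these distances were 571 and 669 kb, and for G6pd2 1208 and 556 kb. For Dnah5, a ciliary dynein gene, they were 392 and 533 kb, in a region inside the long noncoding RNA gene Gm31687. For Pcdh18, a protocadherin gene, they were 710 and 524 kb. The region nearest to G6pd2 (chr5:60599488-60600531) was covered over 757 and 1044 bp in control and 930 and 858 bp in cKO. That nearest to Nxph1 (chr6:9820411-9821217) had 183 and 807 bp in control and 679 and 237 bp in cKO, and thus followed list length.

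Genes of retinal progenitors, neurogenic cells and the cell cycle held no unmarked region. None of 23 progenitor, 16 neurogenic or 20 cell cycle genes had one inside or within 1 kb of an end, and none of 39 Hox genes. Over all 20665 protein-coding genes, 504 (2.44%) had one within 1 kb and 2741 (13.3%) inside. For lists this short a count of 0 near an end is thus the usual one. The counts of 0 inside were not tested against the 13.3%, and gene length was not taken into account. An acetylated region called in all 4 lists lay within 1 kb of an end of 23 of 23 progenitor, 16 of 16 neurogenic and 19 of 20 cell cycle genes. The rule leaves such regions out. Photoreceptor genes held a few inside: 5 of 20 rod genes (Gnb1, Pde6b, Nr2e3, Slc24a1, Gnat1), 4 of 14 cone genes (Rxrg, Cngb3, Slc24a2, Thrb) and 4 of 12 photoreceptor regulator genes, which share Nr2e3, Rxrg and Thrb with those lists. The other lists of retinal neurons and glia had, among others, 3 of 18 bipolar, 4 of 25 Müller glia and 3 of 18 ganglion cell genes, and the Polycomb and NuRD list 5 of 30. Only Pds5b, a cohesin regulator, held one among 17 genes of CTCF and cohesin. The lists were chosen with earlier results known and gave counts only.

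The region at Nr2e3, which encodes a nuclear receptor that represses cone genes in rods (chr9:59959259-59959877), lay 957 bp inside the gene from its end and was covered over 276 and 606 bp in control and 594 and 293 bp in cKO. Its nearest mark was 1.31 kb away. Kcnj10, the gene of the main potassium channel of Müller glia, held 2 unmarked regions. Clu, the clusterin gene, had one 511 bp from an end (chr14:65982059-65982733), with 152 and 660 bp in control and 560 and 269 bp in cKO. The region at Apoe, the gene of a lipid carrier made by glia, was close to the border of the rule, with an H3K27ac peak of the cKO list 0.006 kb away. At Cacna1s, a channel gene of the bipolar list (159 and 519 bp in control, 438 and 153 bp in cKO), the control H3K27ac list had a peak 0.156 kb away and the cKO list none nearer than 11.9 kb. In these regions, too, the short lists gave the narrow covers in both genotypes.

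At imprinted genes, where some clusters are known to be kept by CTCF-bound insulators, 7 of 45 genes held an unmarked region inside (15.6%) and 1 had one within 1 kb of an end (2.22%), shares close to the 13.3% and 2.44% of all protein-coding genes. Between H19, an imprinted long noncoding RNA, and Igf2, a growth factor gene, lay a region 1790 bp from the end of H19 (chr7:142579936-142580829). It was covered over 292 and 781 bp in control and 891 and 350 bp in cKO, with H3K27me3 0.645 kb and H3K27ac 1.72 kb away in the control lists. The insulator of this locus is known to lie upstream of H19. Whether the region is that element was not tested, since its bases are not in the promoter table. Over 19 imprinted clusters, 16 of 90 regions called in all 4 lists were unmarked (17.8%, against 22.3% over all regions), and 12 clusters held none. In the cluster from H19 to Phlda2, 5 of 24 were unmarked, in that from Zim1 to Usp29, which holds Peg3, 4 of 7, and in that from Dlk1 to Dio3 3 of 13. The one at Zim1 (chr7:6696106-6696949) met the gene's end and had 275 and 844 bp in control and 740 and 389 bp in cKO. The 4 Hox clusters held from 2 to 4 regions called in all lists each, and none unmarked.

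Promoter windows in unmarked regions held far fewer CpG than those in acetylated regions and about as many as promoter windows in general. The 130 windows, of 127 genes, had a median GC content of 50.8% and 6 CpG per 300 bases, against 62% and 22 in 10201 windows in H3K27ac-only regions, 50.3% and 5 in unmarked regions of 1 to 3 lists, 47% and 3 in 15593 windows that met no open region, and 53% and 7 over all 31363 windows. The 12-letter CTCF consensus, added after the data were seen, was in 15 of 130 windows (11.5%, exact 95% interval 6.6 to 18.3). It was in 0.931% of H3K27ac-only windows (0.754 to 1.14), 4.89% of H3K27me3-only windows (9 of 184, 2.26 to 9.08, an interval that overlaps that of unmarked windows), 2.58% of windows in unmarked regions of 1 to 3 lists (1.45 to 4.22), 0.103% of windows without an open region and 0.574% of all windows. Among windows of 45 to 55% GC the shares were 12.5% in unmarked (10 of 80), 8.51% in H3K27me3-only (4 of 47) and 0.976% in H3K27ac-only regions. A shorter core of CTCF (CNAGGNGGC, either strand), which overlaps the consensus and shares 9 of the regions with it, was in 22 windows (16.9%, 10.9 to 24.5), against 20.1% with H3K27me3 alone (14.6 to 26.6), 13.2% with H3K27ac alone, 14% with both and 8.39% of all windows. The core was thus no more frequent in unmarked than in H3K27me3-only windows, and its interval includes the H3K27ac-only share. Among windows of 45 to 55% GC the shares were 15% in unmarked, 10.6% in H3K27me3-only (5 of 47) and 6.83% in H3K27ac-only regions. Intervals cover counting error only, windows of 1 gene can overlap, and a match is not a bound site.

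**Figure D5:**
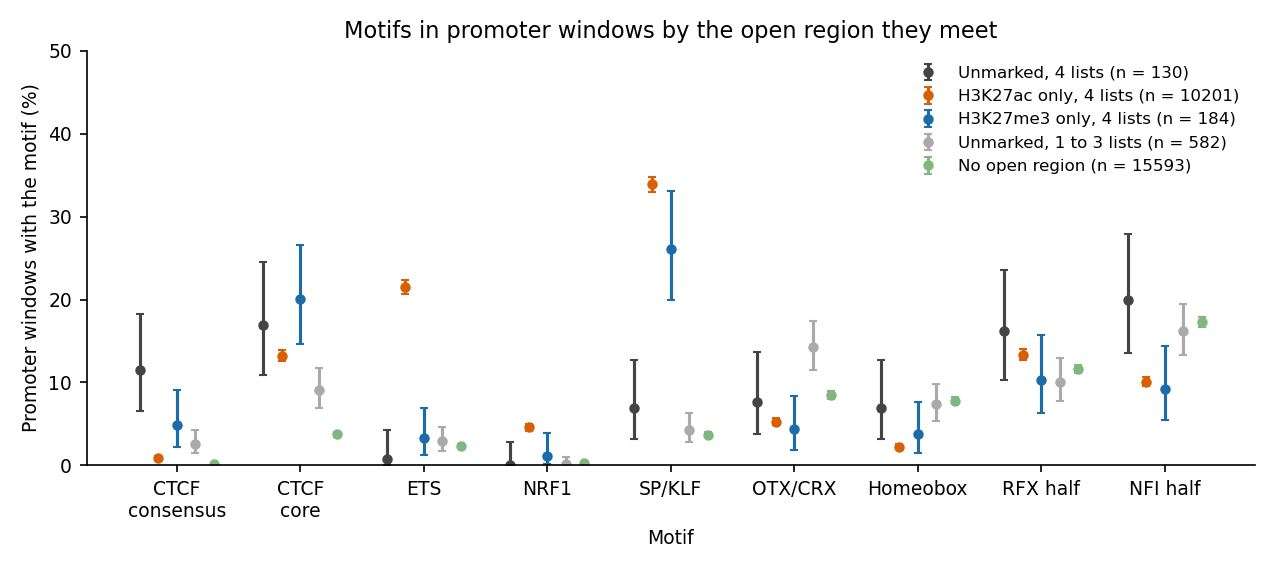
Share of 300-base promoter windows (percent) that hold each motif on either strand, for windows that meet unmarked regions called in all 4 lists, H3K27ac-only regions, H3K27me3-only regions, unmarked regions of 1 to 3 lists, or no open region; bars are exact 95% intervals (counting error only). The CTCF consensus stands at 11.5% in unmarked regions, at 4.89% in H3K27me3-only regions with an overlapping interval, and lower in the other 3 sets, and ETS, NRF1 and SP/KLF motifs are highest in H3K27ac-only regions.

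Inside the windows, the CTCF core followed the peaks. It occurred at 1.19 per kb within the stretch called in all 4 lists and at 0.235 per kb in the rest of the same windows, against 1.07 and 0.508 per kb for H3K27me3-only regions and 0.56 and 0.243 per kb for H3K27ac-only regions. The consensus lay inside that stretch in 14 of 14 places, though the stretch made up 33.1% of window bases. In H3K27me3-only regions it did so in 6 of 7 places with 33.3% of bases, and in H3K27ac-only regions in 80 of 84 with 73.8%. Motifs of factors known at CpG-rich promoters were rarer in unmarked than in H3K27ac-only windows. The ETS motif CCGGAAG was in 0.769% against 21.5%, and the NRF1 motif GCGCATGCG in 0 of 130 (up to 2.8%) against 4.6%. The SP/KLF motif GGGCGGGG was in 6.92% against 33.9%. With H3K27me3 alone the 3 shares were 3.26%, 1.09% and 26.1%, and with both marks 5.6%, 1.07% and 41%, so low ETS and NRF1 shares were not particular to unmarked windows. Over all windows the shares were 9%, 1.73% and 17.8%. The motifs were about as rare in unmarked regions of 1 to 3 lists (2.92%, 0.172% and 4.3%) and in windows without an open region (2.3%, 0.263% and 3.7%). Among windows of 45 to 55% GC the SP/KLF shares were 5% in unmarked and 11.3% in H3K27ac-only regions. The ETS shares there were 1.25% and 19.1%, and the NRF1 shares 0% and 4.44%. In the 47 H3K27me3-only windows of that GC content, the SP/KLF, ETS and NRF1 shares were 0%, 2.13% and 0%. Motifs of retinal factors stood near their share over all windows: the OTX/CRX motif TAATCC was in 7.69% (3.75 to 13.7), against 14.3% in unmarked regions of 1 to 3 lists and 7.07% of all windows, and the E-box CAGATG, bound by proneural factors, in 15.4%, against 27.1% and 17.2%.

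The comparison of genotypes asked whether unmarked regions were wider or narrower without Casz1, and no unmarked region passed the test. On log2 covered bases, quantile normalised over the 4 libraries, limma with Benjamini-Hochberg adjustment called 0 of 7325 unmarked regions and 0 of 32852 in all (0%), with 21 and 106 at an unadjusted p under 0.05. The median log2 difference, cKO minus control, was -0.0455 in unmarked regions (median SE 0.365) and -0.0164 over all regions. Its sign turned between the pairs of lists of like length, at -0.118 for cKO replicate 2 against control replicate 1 and 0.0401 for cKO replicate 1 against control replicate 2. Without control replicate 2, a long list, 3 unmarked regions were called (0.041%), beside 97 over all regions (0.295%). Those wider in cKO had 106 bp in control replicate 1, and the one narrower in cKO had 110 bp in cKO replicate 2. Each value is the smallest peak width of its list. That fit has a single control library, which is assumed to vary like the cKO group, and with all libraries the limma adjusted p of each of the 3 was 1.

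By width percentile within each list, 707 unmarked regions (9.65%) were wider in both cKO lists than in either control list, where 9.21% of all regions were. In the other direction 849 (11.6%) were wider in both control lists, where 8.36% of all regions were. The region with the largest difference towards cKO lay 203 kb from Actr3, an actin-nucleating complex gene (chr1:125188999-125189887), with 106 and 615 bp in control and 889 and 450 bp in cKO. In bases, these groups overlap, and 106 bp is the smallest peak width in the list of control replicate 1. Others of this direction lay inside Pde2a and Ext1 and between genes, 194 kb from Nsun3 and 170 kb from Pcdh7. In control replicate 1 these had 117, 130, 118 and 112 bp in the same order, near that smallest width. Towards control, the largest lay 125 kb from Nr2f1, the gene of a nuclear receptor (chr13:78324230-78325551), with 232 and 1322 bp in control and 495 and 234 bp in cKO. Inside Thrb, which encodes the thyroid hormone receptor needed for M cones (chr14:17967129-17967799), a region had 282 and 671 bp in control and 340 and 157 bp in cKO, with an H3K27ac peak 0.79 kb away in the control list and 6.89 kb away in the cKO list. The others lay between genes, 13.6 kb from Gm32856, 27.8 kb from Sash1 and 855 kb from Tenm2, the nearest protein-coding gene in each case. In cKO replicate 2, whose smallest peak is 110 bp, these had 193, 123 and 125 bp. In limma none of these had an adjusted p other than 1.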

How the data were processed

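Open chromatin (ATAC-seq, 4 libraries) and 2 histone marks (ChIP-seq, 4 libraries) were profiled in mouse retina, and 8 of 10 samples had a peak list; the 2 input samples were not analysed here. The members and lists were chosen with earlier results of these data known. The deposited files give chromosome, start, end and name of peaks that the authors called per library, judging by the peak names, with score 0 and strand + throughout, so that positions are the only measurement and no read count, height or depth is known. The submitters' processing notes name Bowtie2, deepTools, MACS2 and the build mm10, without versions; the sources used here do not give thresholds, duplicate removal, any read shift for Tn5, or whether input entered the calls. Groups and replicate numbers came from sample titles.

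Peaks on chromosomes 1 to 19 were merged (at least 1 bp shared), and covered bases per list, distances and class shares were computed with Python 3.11.15, pandas 2.3.3, numpy 2.4.6 and scipy 1.17.1. Gene positions (RefSeq, GRCm38.p6) have both ends but no strand or exons, so exons, introns and UTRs were not assigned. Motifs were searched in RefSeq promoter windows, whose table holds no window of 1 of the 19 chromosomes. Widths were compared with limma 3.58.1 in R 4.3.3 (trended variance, quantile normalisation, adjusted p threshold 0.05). The fit was also run on simulated widths with noise independent between libraries. That simulation does not show how the fit behaves on libraries set apart by list length. Regions are not replicates, and the 4 libraries limit the precision. Same-numbered libraries deviated in opposite directions (correlation -0.622 over 32852 regions), so replicate numbers were not used to pair.

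Named regions followed a rule: the 10 widest by lowest percentile, and the 5 farthest from a mark among those high in that percentile. Added to these were 5 per direction by percentile difference and any past the limma threshold. The rule also took up to 4 per gene list within 1 kb of an end and those in imprinted and Hox clusters. Last came the 5 genes with most unmarked regions inside. The 12-letter CTCF consensus and the promoter sequences printed were chosen after the data were seen. Alternatives covered merging, mark rules, width minimums, chromosome X and leaving out each library.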

Additional observations from a re-analysis of the deposited data

How the results depend on the processing

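The CTCF core share was from 13.2% to 17.6% under the alternatives to the region rule, and the number of regions changed most with the ATAC calls. Leaving out each ATAC library gave from 7506 to 15293 regions, 4.79% to 6.34% within 1 kb of a gene end, median widths of 527 to 576 bp, and 0 to 3 regions called by genotype; the highest count and the lowest share were without control replicate 1. With ATAC peaks of at least 200 bp, 1228 regions remained, with 5.37% near a gene end and a median width of 654 bp, and with a mark required over most of the region (0.5 or more of its bases) there were 11237, with 8.07% and 625 bp. The median width was 591 bp with peaks up to 500 bp apart joined and with the cKO histone lists only, 592 bp with the control histone lists only, and 601 bp with histone peaks of at least 300 bp. The gene-end share was 11.9% over all annotated genes, 4.1% within 500 bp, 10.9% within 2000 bp, and 3.66% within 1 kb of a RefSeq start (added after the data were seen). The distance to the nearest mark was 5.54 kb from the control and 5.67 kb from the cKO lists alone, where fewer peaks are searched. The CTCF consensus in place of the core gave 11.5% under the main rule, and it was not searched again under the alternatives. The core share of H3K27ac-only windows under the main rule, 13.2%, equals the low end of the range for the core.

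For genotype, limma with the replicate block called 0 unmarked regions, and the crossed pairing as a block, added after the data were seen, also called 0 (265 unmarked regions, 3.62%, at an unadjusted p under 0.05, beside 1877 of all regions, 5.71%). Non-overlapping width percentiles gave 1556 in both directions together, a rule without a test. Scaling moved the median log2 difference of all regions from -0.0164 to -0.13 with list medians and to 0.173 without scaling, and unmarked regions stood -0.029, -0.0297 and -0.0297 from it. The lists' unknown depth limits each width, and the cause of these shifts was not tested.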

Other observations

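In 32 unmarked regions (0.437%) the narrowest of the 4 covers was at least 0.8 of the widest, against 461 H3K27ac-only regions (2.29%) and 33 H3K27me3-only regions (1.89%). Beside the region at the pseudogenes Gm10222 and Gm10925, they included one 63.4 kb from Adgrl2, the gene of an adhesion receptor (chr3:149052476-149052934), with 443 and 459 bp in control replicates 1 and 2 and 459 and 443 bp in cKO replicates 1 and 2. Another lay 11.6 kb from Gm14496 (chr2:182012714-182013230), with 517 and 496 bp in control and 496 and 507 bp in cKO, and another 343 kb from Plk2, a polo-like kinase gene, with 538 and 576 bp and 576 and 574 bp. These regions were picked for even widths, so that their widths hardly followed list length is not a result.

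Genes of tRNAs and microRNAs were met less often by unmarked than by H3K27ac-only regions, and those of snoRNAs about as often; no test was made. Of 7325, 5 met a tRNA gene (0.0683%), where 94 H3K27ac-only regions did (0.467%), and 3 met a microRNA gene (Mir6349, Mir7020 and Mir7237), where 69 H3K27ac-only regions did (0.343%). A snoRNA gene was met by 6 unmarked (0.0819%) and 22 H3K27ac-only regions (0.109%). Long noncoding RNA genes held 808 unmarked regions (11%), against 14.4% of H3K27ac-only regions, 15.2% of H3K27me3-only regions and 17.3% of those with both. Pseudogenes held 45 (0.614%), against 0.452%, 0.171% and 0.928% in the same order.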
